A study of Rattus norvegicus with 18 samples.

Results

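Homeostatic microglia genes are genes that microglia, the resident macrophages of the brain, express in undisturbed tissue. The 9 genes P2ry12, P2ry13, Tmem119, Gpr34, Cx3cr1, Csf1r, Sall1, Olfml3 and Aif1 were chosen by symbol, all 9 were found among the 30735 genes of the count file, and all 9 were among the 18444 genes that passed the filter on low counts. RNA was sequenced from the cortex of 18 adult Sprague Dawley rats, 1 library per rat, in 3 groups of 6. The SAH 1d and SAH 7d groups had subarachnoid hemorrhage (SAH), made by pushing a filament through an artery at the base of the brain, and were sampled 1 and 7 days later. The sham rats were operated on in the same way but no artery was perforated. The time at which they were sampled is not stated, and the same sham group was compared with both days. No genetic change is described for any group, the sex is not stated, and the methods of the study name the cortex of the operated side whereas the sample descriptions name both sides and mice. The comparisons ask whether these genes were lost at day 1 and whether they came back, or rose further, by day 7.

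Microglia depend on signalling through the receptor Csf1r for their survival, and Sall1 is a transcription factor that keeps their identity. Their resting branches carry the purine receptors P2ry12 and P2ry13, which sense ADP released by damaged cells, and the fractalkine receptor Cx3cr1, which reads a ligand made by neurons. P2ry12, P2ry13, Gpr34, Tmem119, Sall1 and Olfml3 are used to tell microglia from other macrophages, while Csf1r, Cx3cr1 and Aif1 are also expressed by macrophages from the blood and the brain borders. P2ry12 and Tmem119 are known to be lost from microglia that react to injury.

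Total counts per library ranged from 27270026 to 38271014 (median 30711729.5). Markers of cortical tissue were present in every library: the summed level of 7 neuron genes was 2624 to 10044 CPM, that of 5 astrocyte genes 1645 to 3273 CPM and that of 5 oligodendrocyte genes 7694 to 17836 CPM. CPM are the deposited counts relative to library size, scaled by TMM factors over all 18 libraries. Among the SAH libraries, 2 stood apart. SAH 7d-5 had the lowest neuron sum (2624 CPM) and the highest sum of 11 pan-myeloid genes (6577 CPM, against 238 to 1396 CPM in the other 17 libraries), and SAH 1d-3 had 30.5 CPM of the neutrophil gene S100a9, against at most 4.23 CPM elsewhere. Where the result of a member moved without them, the value without them is given beside it. The library numbers are those of the columns in the deposited files. Of the sham libraries, sham-1 had the lowest neuron sum (6871 CPM) and the highest pan-myeloid sum (481 CPM). It was the highest sham library for 8 of the 9 members. Without it Csf1r, Cx3cr1 and Aif1 were called higher at day 1, as were 2817 of the 18444 tested genes.

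At day 1 the members split. P2ry12 and P2ry13 fell, at 0.438 and 0.478 of the sham mean, whereas no member rose past the threshold, and the fitted log2 fold changes ran from -1.19 for P2ry12 to 0.56 for Aif1. A gene was called at a Benjamini-Hochberg adjusted p under 0.05 in the quasi-likelihood F test of edgeR, adjusted over all 18444 tested genes. By this rule 2 of the 9 members were lower and 0 were higher at SAH 1d than in sham, where 10.5% of all tested genes were called lower and 14.9% higher. Without SAH 1d-3, 3 members were called lower, with Gpr34 added, and 3 higher, Csf1r, Cx3cr1 and Aif1 (2406 and 2846 of all tested genes). At an unadjusted p under 0.05, 4 members were lower and 3 higher (17.5% and 21.3% of all tested genes). The median log2 fold change was -0.03 over the members and 0.01 over all tested genes. In RNA from whole tissue, fewer cells of a type and less RNA per cell cannot be told apart.

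P2ry12 (ENSRNOG00000013902) had 12.8 to 33.7 CPM in the sham libraries (median 22.6), 2.23 to 13.1 CPM in SAH 1d (median 11.1) and 16.7 to 109.6 CPM in SAH 7d (median 28.5). All SAH 1d libraries but SAH 1d-6 lay below the lowest sham library, and the lowest value was that of SAH 1d-3. The mean was 22.3 ± 7.84 CPM (SD, n = 6) in sham and 9.77 ± 4.05 CPM in SAH 1d, and the gene fell by 1.19 on the log2 scale (SE 0.35, edgeR adjusted p = 0.0251). Without sham-3, its highest sham library, the adjusted p was 0.0573 with a log2 fold change of -1.04. The fold change stayed between -1.31 and -0.80 over 24 alternatives, and the call was lost in 5 of them. Without SAH 1d-3 the SAH 1d mean was 11.3 ± 1.86 CPM (n = 5), and the log2 fold change was smaller, at -0.98, and still called.

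P2ry13 (ENSRNOG00000029756), the second ADP receptor, had 4.94 to 9.13 CPM in sham (median 7.16), 1.42 to 5.10 CPM in SAH 1d (median 3.65) and 4.19 to 30.2 CPM in SAH 7d (median 8.01). Again 5 of 6 SAH 1d libraries were below every sham library, all but SAH 1d-1, and SAH 1d-3 was lowest. The mean went from 7.18 ± 1.77 to 3.43 ± 1.34 CPM, and P2ry13 fell by 1.06 on the log2 scale (SE 0.27, adjusted p = 0.0136). Its call was kept when any 1 library was left out, with adjusted p up to 0.0312, and was lost in 1 of 24 alternatives, the fit of all 18 libraries (adjusted p = 0.0914). Leaving out SAH 1d-3 gave a SAH 1d mean of 3.84 ± 1.02 CPM (n = 5).

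Gpr34 (ENSRNOG00000039759), a receptor for lysophosphatidylserine, had 26.7 to 57.5 CPM in sham (median 32.4), 3.91 to 28.9 CPM in SAH 1d (median 21.9) and 18.5 to 229.7 CPM in SAH 7d (median 59.7). As for the ADP receptors, 5 of 6 SAH 1d libraries were below the sham range. The log2 fold change at day 1 was -0.81 (SE 0.35, adjusted p = 0.107), so the gene was not called. SAH 1d-3, at 3.91 CPM, lay far below the other 5, and without it the fold change was smaller and was called (-0.59, SE 0.18, adjusted p = 0.0295).

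Tmem119 (ENSRNOG00000000700), a membrane protein used as a microglia marker, had 10.6 to 40.1 CPM in sham (median 26.7), 10.9 to 20.9 CPM in SAH 1d (median 16.7) and 30.1 to 78.3 CPM in SAH 7d (median 39.5). No SAH 1d library was below the sham range, whose lowest library was sham-4, with the other 5 at 19.8 CPM or more, and all 6 lay below the sham mean of 26.6 ± 10.7 CPM. The log2 fold change at day 1 was -0.71 (SE 0.26, adjusted p = 0.0636), and without sham-4 it was -0.87 and was called (adjusted p = 0.0106). DESeq2 also called it lower (adjusted p = 0.0282).

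The other receptors and Aif1 were not lower at day 1. Csf1r (ENSRNOG00000018414) had 91.9 to 175 CPM in sham (median 106), 112 to 179 CPM in SAH 1d (median 163) and 129.7 to 1295 CPM in SAH 7d (median 266). Cx3cr1 (ENSRNOG00000018509) had 16.0 to 26.3 CPM in sham (median 16.8), 18.8 to 27.996 CPM in SAH 1d (median 23.5) and 17.9 to 129 CPM in SAH 7d (median 36.2). Aif1 (ENSRNOG00000000853), which encodes the actin-binding protein Iba1, had 9.02 to 15.9 CPM in sham (median 10.2), 10.3 to 20.4 CPM in SAH 1d (median 18.2) and 8.97 to 143 CPM in SAH 7d (median 25.0). For these genes sham-1 was the highest sham library, and the next highest was at 119.6 CPM for Csf1r and 17.6 CPM for Cx3cr1. The log2 fold changes at day 1 were 0.40 for Csf1r (SE 0.16, adjusted p = 0.0756), 0.36 for Cx3cr1 (SE 0.13, adjusted p = 0.0649) and 0.56 for Aif1 (SE 0.21, adjusted p = 0.0599). None was called in the edgeR fit of 12 libraries, but all 3 were called higher without sham-1 (adjusted p of 0.00643, 0.00438 and 0.0236) or without SAH 1d-3 (0.0249, 0.0280 and 0.0210), and Aif1 also without SAH 1d-4 (0.0263). In these fits, in the same order, 2817, 2846 and 2566 of the 18444 tested genes were called higher.

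Sall1 (ENSRNOG00000013907) had 25.2 to 44.8 CPM in sham (median 30.1), 19.96 to 40.0 CPM in SAH 1d (median 32.1) and 31.3 to 152 CPM in SAH 7d (median 54.6). Olfml3 (ENSRNOG00000019211), a secreted matrix protein, had 5.43 to 9.13 CPM in sham (median 5.62), 3.84 to 9.67 CPM in SAH 1d (median 7.19) and 6.85 to 43.9 CPM in SAH 7d (median 9.19). Both sham ranges lay largely over the SAH 1d ranges. The day 1 fold change of Sall1 was -0.03 (SE 0.16, interval of 2 SE from -0.36 to 0.29, adjusted p = 0.907) and that of Olfml3 was 0.05 (SE 0.22, interval from -0.39 to 0.49, adjusted p = 0.884), and the sign changed in 7 and 2 of 24 alternatives, so neither has a direction at day 1. For Sall1 the fit without SAH 1d-3 is counted 2 times among the 7.

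**Figure D1:**
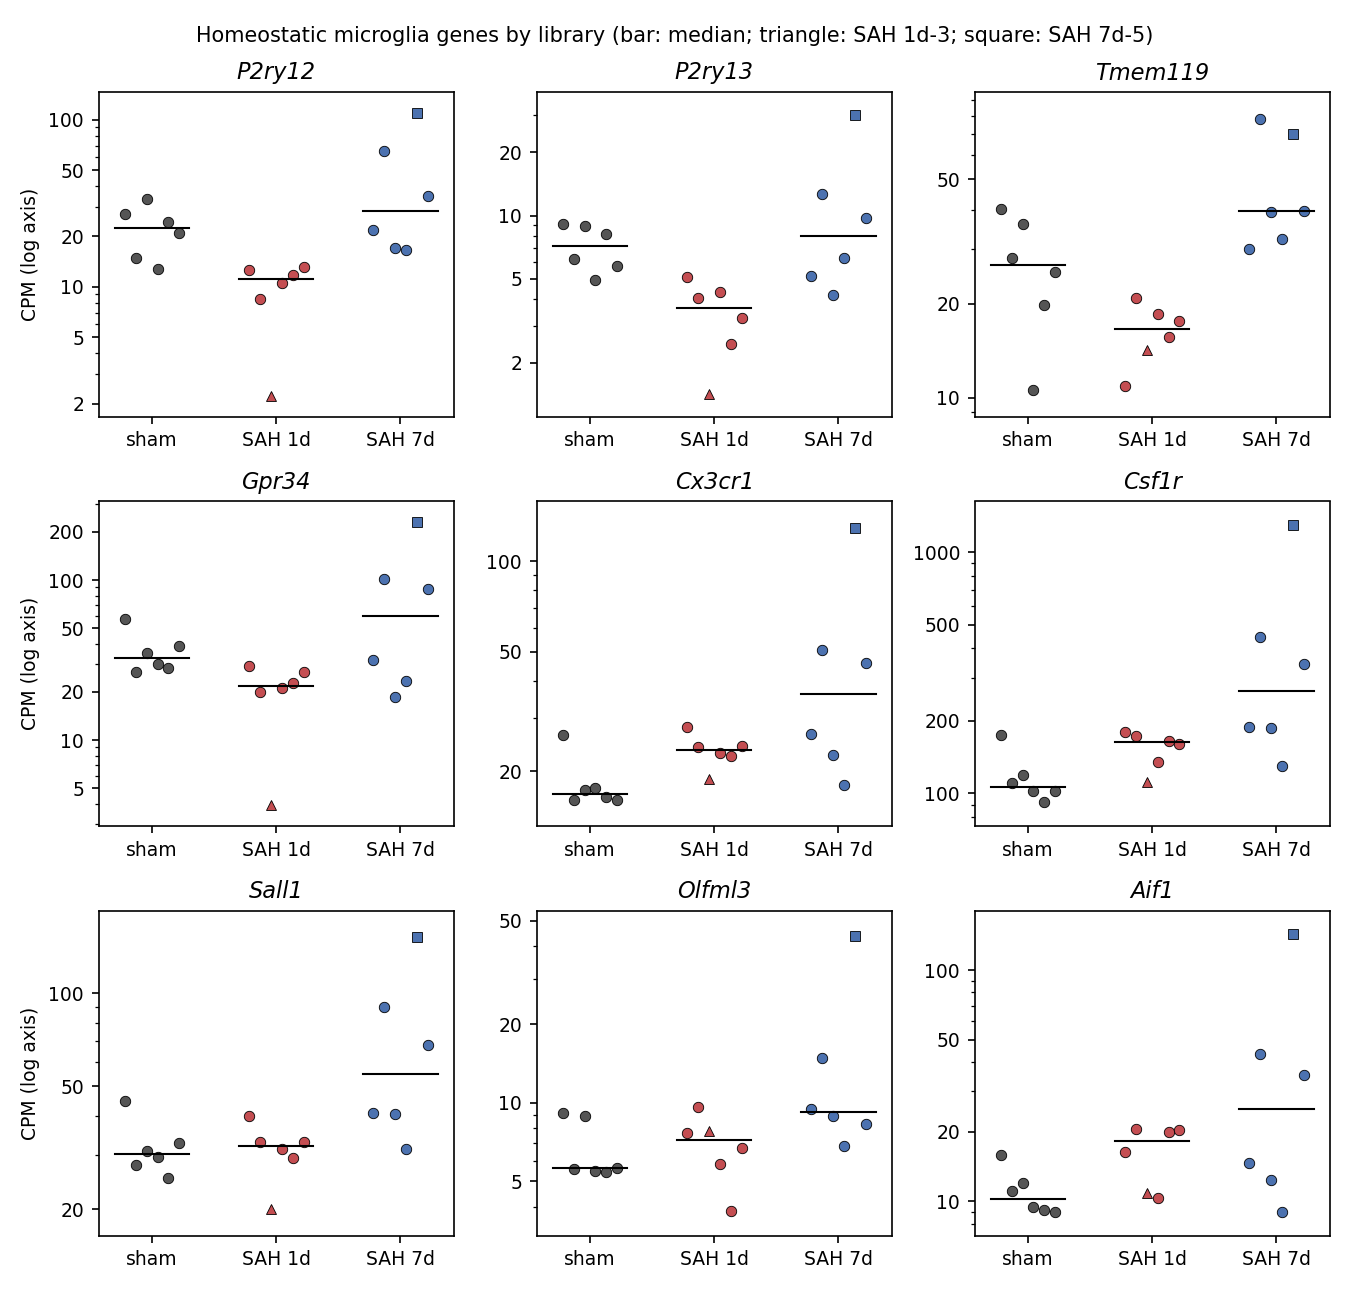
Level of each homeostatic microglia gene in each of the 18 libraries, in CPM on a log axis. Each point is 1 rat, the bar is the group median, the triangle is SAH 1d-3 and the square is SAH 7d-5. P2ry12 lies at 2.23 to 13.1 CPM in SAH 1d against 12.8 to 33.7 CPM in sham, and SAH 7d-5 is the highest SAH 7d library for 8 of the 9 genes.

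The order of the genes changed with this split. Levels of different genes were compared as FPKM, the deposited values per length of transcript. In sham the medians ran from Csf1r (28.8 FPKM) over Gpr34 (23.2), P2ry12 (17.1), Aif1 (14.9), Cx3cr1 (12.0), Tmem119 (11.6), P2ry13 (5.48) and Sall1 (5.37) to Olfml3 (3.01). Only Sall1 and Olfml3 did not overlap as neighbours in this order. In SAH 1d, Aif1 (27.8 FPKM) and Cx3cr1 (17.99) stood above Gpr34 (16.6) and P2ry12 (8.74), and P2ry13 (2.996) was last. In SAH 7d, Csf1r (72.4 FPKM), Gpr34 (43.5) and Aif1 (36.3) led and Olfml3 (5.03) was again last. In both SAH groups every pair of neighbours overlapped.

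Within libraries, the level of each member was divided by that of Csf1r. These ratios of CPM are a description, since Csf1r, and Cx3cr1 and Aif1 further below, were chosen as denominators after the values were seen. These denominators had day 1 fold changes above 0, so lower ratios to them partly restate the split in levels and are not added support for it. P2ry12 was 0.125 to 0.281 times Csf1r in sham (median 0.181), 0.0199 to 0.0812 in SAH 1d (median 0.0707) and 0.0847 to 0.145 in SAH 7d (median 0.109). All 6 SAH 1d libraries lay below every sham library and below every SAH 7d library, while SAH 7d still overlapped the lower end of sham. P2ry13 was 0.0484 to 0.0886 times Csf1r in sham, 0.0127 to 0.0322 in SAH 1d and 0.0223 to 0.0483 in SAH 7d. Gpr34 was 0.242 to 0.377 times Csf1r in sham, 0.0349 to 0.165 in SAH 1d and 0.0985 to 0.255 in SAH 7d. Sall1 was 0.251 to 0.322 times Csf1r in sham, 0.178 to 0.232 in SAH 1d and 0.117 to 0.241 in SAH 7d. Thus 4 of 8 ratios were below the sham range in every SAH 1d library, against 5.48% of all other tested genes relative to Csf1r. With Cx3cr1 as denominator the same 4 genes were below the sham range (6.37% of genes), and with Aif1 P2ry12, P2ry13 and Gpr34 were (3.57%). At day 7, 3 of 8 ratios to Csf1r, of P2ry13, Sall1 and Cx3cr1, were still below the sham range in all 6 libraries (6.53% of genes), but 0 were with Cx3cr1 (2.23%) or Aif1 (0.499%) as denominator. The mean log2 CPM of the 11 pan-myeloid genes was also subtracted from the log2 CPM of each member. The difference lay below the sham range in all 6 SAH 1d libraries for all 9 members, Csf1r, Cx3cr1 and Aif1 included. It did so for 65.5% of all tested genes. Subtracting the same mean from every member keeps the split between members. The mean difference changed from sham to SAH 1d by -2.64 for P2ry12, -2.47 for P2ry13, -2.33 for Gpr34 and -1.96 for Tmem119. It changed by -1.38 for Sall1, -1.31 for Olfml3, -0.97 for Cx3cr1, -0.93 for Csf1r and -0.81 for Aif1. In SAH 7d the difference lay below the sham range in all 6 libraries for 2 of 9 members, Gpr34 and Aif1 (6.66% of all tested genes). The ratio of Aif1 to Csf1r overlapped between all groups, at 0.0884 to 0.101 in sham, 0.0767 to 0.126 in SAH 1d and 0.0658 to 0.110 in SAH 7d.

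**Figure D2:**
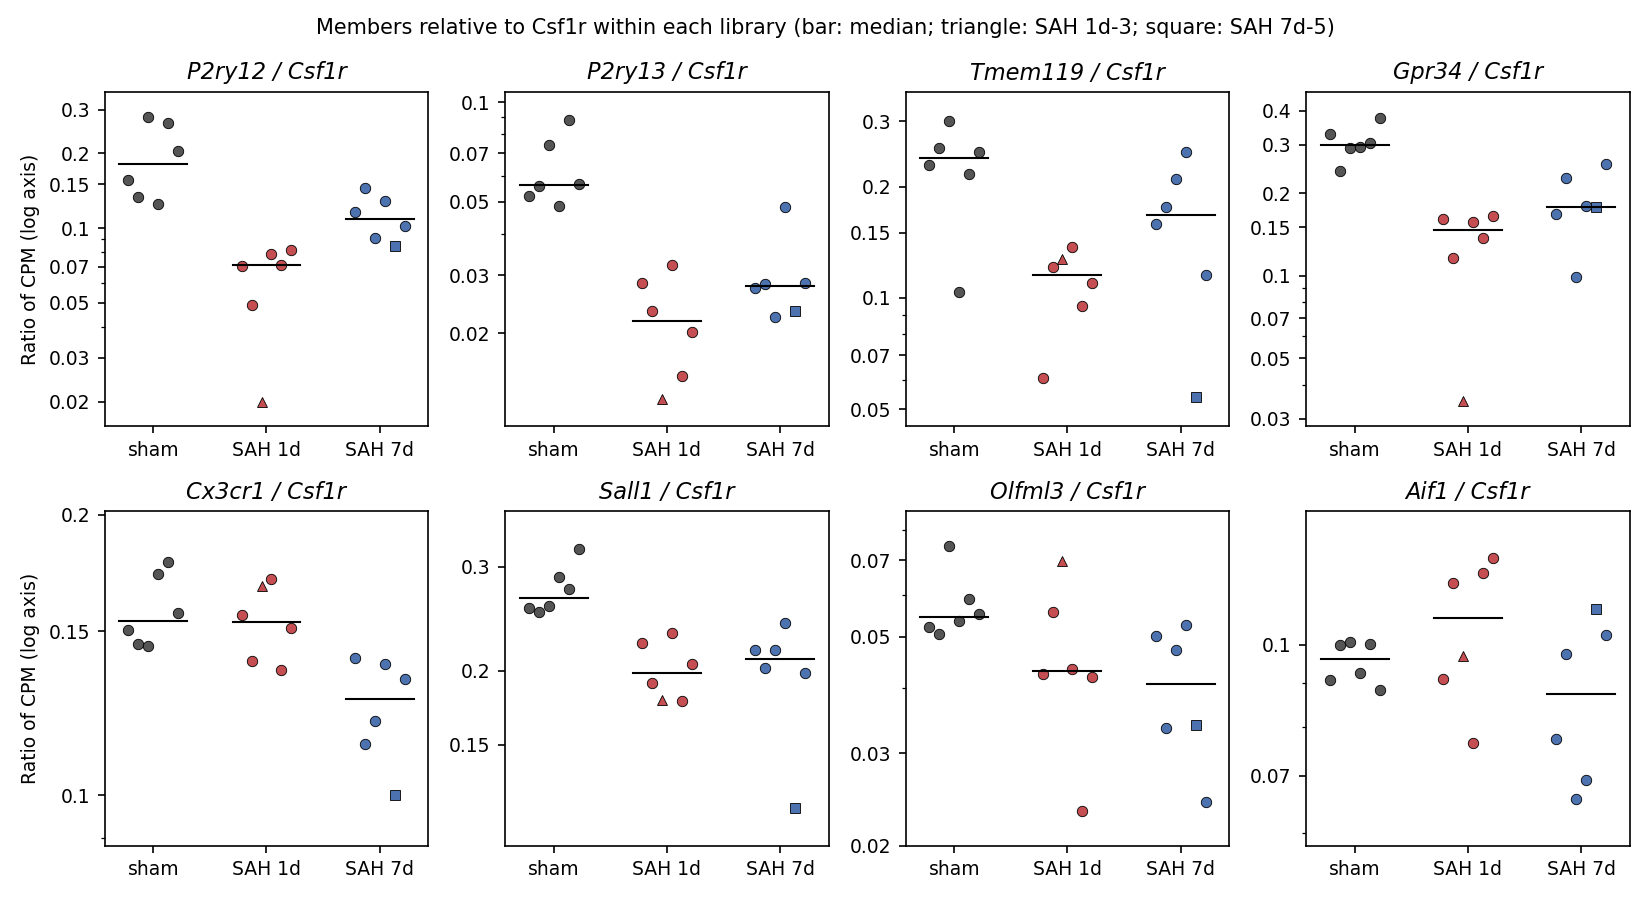
Ratio of the CPM of each of 8 members to the CPM of Csf1r within each library, on a log axis. Points are rats, bars are group medians, the triangle is SAH 1d-3 and the square is SAH 7d-5. For P2ry12 the 6 SAH 1d libraries, at 0.0199 to 0.0812, lie below all sham libraries, at 0.125 to 0.281, whereas Aif1 and Cx3cr1 overlap between sham and SAH 1d.

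From day 1 to day 7 all 9 members had a log2 fold change above 1, from 1.07 for Cx3cr1 to 2.19 for P2ry12, with a median of 1.495 against 0.03 over all tested genes. These sizes rest on SAH 7d-5: without it 4 of 9 members were at 1 or more (1.65% of all tested genes), P2ry12, Tmem119, Gpr34 and P2ry13, and the median was 0.80. All 9 stayed above 0 without it, where 47.9% of all tested genes were. Only Tmem119 passed the test, so 1 of 9 members was called higher and 0 lower, where 0.282% of all tested genes were called higher and 1.08% lower. At an unadjusted p under 0.05 all 9 were higher (6.66% of all tested genes). Without SAH 7d-5, 6 members and 2073 of the 18444 tested genes were higher at this threshold. With SAH 7d-5, a log2 fold change of 1 or more was reached by 3.82% of all tested genes. Tmem119 had a mean of 16.3 ± 3.52 CPM in SAH 1d and 48.2 ± 20.5 CPM in SAH 7d, the groups did not overlap, and the gene rose by 1.56 on the log2 scale (SE 0.26, edgeR adjusted p = 0.0123). This call was kept in all 24 alternatives, with fold changes of 1.32 to 1.67 and adjusted p up to 0.0437.

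P2ry12 was also higher in every SAH 7d library than in every SAH 1d library, which held for 2 of the 9 members and 0.938% of all tested genes. Its log2 fold change was 2.19 (SE 0.54, adjusted p = 0.0687), and without SAH 7d-5 it was 1.67 and was called (adjusted p = 0.0383). The changes of the other members were 2.01 for Gpr34 (SE 0.63, adjusted p = 0.150), 1.73 for P2ry13 (SE 0.49, adjusted p = 0.109), 1.495 for Csf1r (SE 0.49, adjusted p = 0.167) and 1.399 for Aif1 (SE 0.60, adjusted p = 0.301). Those of Sall1, Olfml3 and Cx3cr1 were 1.18 (SE 0.35, adjusted p = 0.129), 1.1601 (SE 0.45, adjusted p = 0.241) and 1.07 (SE 0.42, adjusted p = 0.245). Without SAH 7d-5 the changes were 1.34 for Gpr34, 1.14 for P2ry13, 0.80 for Sall1, 0.74 for Csf1r, 0.48 for Aif1 and Olfml3 and 0.47 for Cx3cr1, with 0 of these 7 called. In that fit 587 of the 18444 tested genes were called higher. With SAH 1d-3 and SAH 7d-5 both left out, 3 members were called higher, P2ry12, P2ry13 and Tmem119, where 6.13% of all tested genes were called higher.

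Against sham, day 7 gave no call. All 9 log2 fold changes were above 0 (49.4% of all tested genes), 6 were 1 or more (7.77% of all tested genes), and the median was 1.196 against -0.00 over all tested genes, but 0 of 9 members passed edgeR's test, as did 0.0% of all tested genes. At an unadjusted p under 0.05, 7 members were higher and 0 lower (11.7% and 3.66% of all tested genes), and DESeq2 called 4 members higher, where it called 406 genes (2.2%), and limma voom 0, where it called 2 genes. The fold changes were 1.96 for Aif1 (SE 0.60, adjusted p = 0.220), 1.89 for Csf1r (SE 0.50, adjusted p = 0.214) and 1.42 for Cx3cr1 (SE 0.42, adjusted p = 0.214). For P2ry12, P2ry13, Gpr34 and Tmem119 they were 0.99 (SE 0.47, adjusted p = 0.330), 0.67 (SE 0.43, adjusted p = 0.436), 1.196 (SE 0.55, adjusted p = 0.322) and 0.86 (SE 0.33, adjusted p = 0.271). Those of Sall1 and Olfml3 were 1.154 (SE 0.35, adjusted p = 0.215) and 1.21 (SE 0.44, adjusted p = 0.258). Without SAH 7d-5 all 9 were still above 0, but only Csf1r (1.161) and Aif1 (1.06) were at 1 or more (2.82% of all tested genes), and the median was 0.73. The changes without it were 0.85 for Cx3cr1, 0.78 for Sall1, 0.73 for Tmem119, 0.56 for Gpr34, 0.55 for Olfml3, 0.497 for P2ry12 and 0.0958 for P2ry13, with 0 called, as were 0 of all tested genes. The 3 comparisons share libraries in pairs, so their fold changes are not independent of each other.

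**Figure D3:**
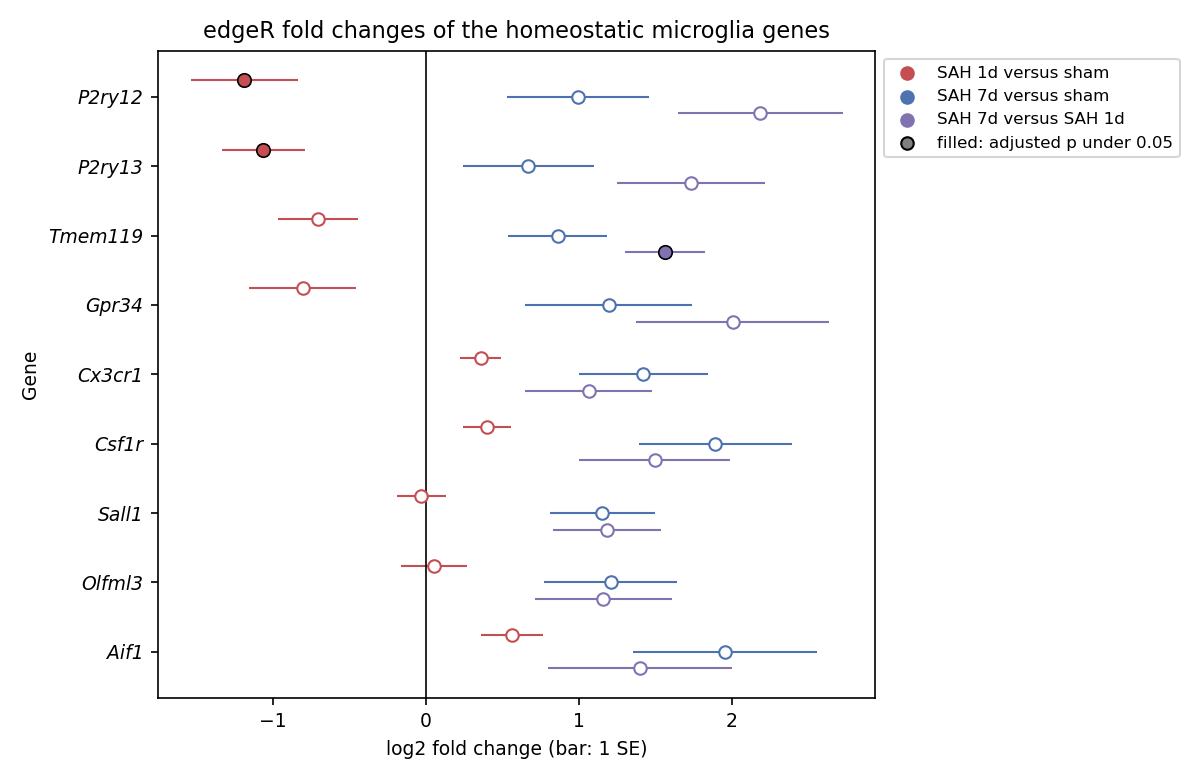
Log2 fold changes that edgeR fitted for the 9 genes in SAH 1d versus sham, SAH 7d versus sham and SAH 7d versus SAH 1d, with bars of 1 SE. Filled points have an adjusted p under 0.05: P2ry12 (-1.19) and P2ry13 (-1.06) at day 1 against sham, and Tmem119 (1.56) between the days.

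The day 7 libraries differed widely. The coefficient of variation of a member was 42.6% to 118% in SAH 7d, against 21.6% to 40.3% in sham and 12.8% to 42.9% in SAH 1d. SAH 7d-2 and SAH 7d-5 lay above the highest sham library for all 9 members, SAH 7d-6 for 7, SAH 7d-1 for 3, SAH 7d-3 for 1 and SAH 7d-4 for 0. SAH 7d-5 was the highest of its group for 8 members, with 1295 CPM of Csf1r and 143 CPM of Aif1, and SAH 7d-2 for Tmem119, with 78.3 CPM. SAH 7d-4 was the lowest for 6. Without SAH 7d-5 the SAH 7d mean of Csf1r was 259 ± 131 CPM (n = 5) in place of 432 ± 439 CPM (n = 6), and that of P2ry12 was 31.1 ± 20.2 in place of 44.2 ± 36.8 CPM. SAH 7d-5 is also the library with the lowest neuron sum, 2624 CPM, and with the highest sum of 6 border macrophage genes, 224 CPM against a group median of 43.4 CPM. The part of these cells in the day 7 levels of the members was not tested.

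**Figure D4:**
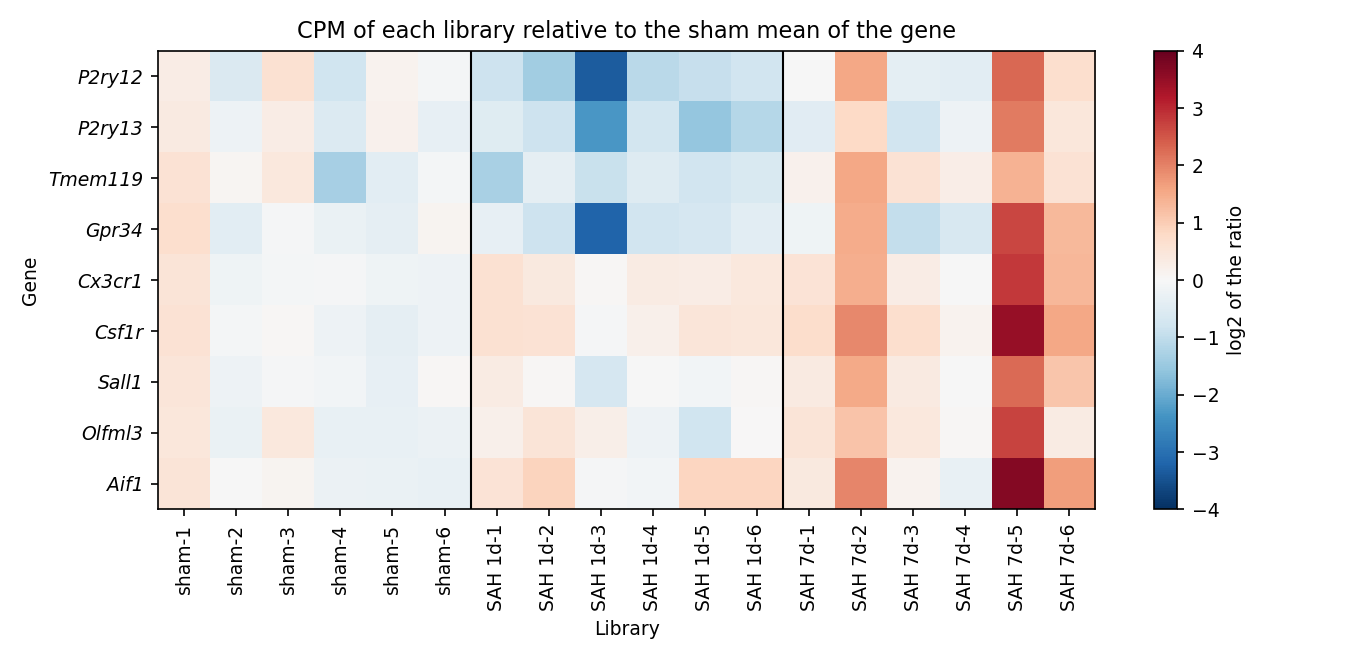
Level of the 9 genes in the 18 libraries as log2 of the ratio of CPM to the sham mean of the gene, with blue for lower and red for higher values on a scale from -4 to 4. P2ry12, P2ry13, Tmem119 and Gpr34 are blue across SAH 1d, where Csf1r and Cx3cr1 are at or above the sham mean in 5 or 6 of 6 libraries, and all 9 genes are red in SAH 7d-2 and SAH 7d-5.

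Pooled over the groups, members varied together, but within SAH 1d Tmem119 and Olfml3 did not follow the others. For the 36 pairs, the Pearson r of the deviations of log2 CPM from the group means over 18 libraries ran from 0.48 to 0.99 with a median of 0.82, highest for Cx3cr1 with Csf1r. With these libraries (SAH 1d-3, SAH 7d-5) left out it ran from 0.44 to 0.96 with a median of 0.71. Within the 6 SAH 1d libraries r ran from -0.34 for P2ry12 with Olfml3 to 0.99 for P2ry12 with Gpr34, with a median of 0.54. SAH 1d-3 was the lowest library of the group for both P2ry12 and Gpr34, and r within SAH 1d was not taken without it. Within SAH 1d r ran from -0.23 to 0.16 for Tmem119 with the other members, and from -0.34 to 0.18 for Olfml3. The median was 0.73 within sham and 0.95 within SAH 7d. The points share library, depth and cell make-up, and the values are descriptions. Of all other genes with a symbol, the one whose log2 CPM was most like the mean of the members over the 18 libraries was Slco2b1, an organic anion transporter on the list of other homeostatic genes, with a Pearson r of 0.99 (0.98 without both libraries, Spearman rho 0.93). It was followed by Itm2b, Golm1, Tifab, Il4i1, Trem2, Plxdc2, Fam169b, Tmem176b and Man2b1, with r from 0.96 to 0.93. Slco2b1 alone of these 10 was also among the 10 most alike without both libraries or by Spearman rho.

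The lists of other genes put the members beside their surroundings. At day 1, 10.5% of all tested genes were called lower and 14.9% higher. Of 10 other tested homeostatic microglia genes, 1 fell at day 1 and 0 rose, with a median log2 fold change of 0.02. The gene that fell was Selplg, a ligand of P-selectin on myeloid cells, with 23.2 to 48.6 CPM in sham (median 30.4), 13.035 to 26.3 CPM in SAH 1d (median 20.4) and 37.2 to 122 CPM in SAH 7d (median 74.8). It fell by 0.68 on the log2 scale at day 1 (SE 0.19, adjusted p = 0.0174) and rose by 2.003 from day 1 to day 7 (SE 0.30, adjusted p = 0.00627), which made it the only gene of the 15 lists besides the members to be called between the SAH groups. By contrast, 8 of 11 pan-myeloid genes rose at day 1 and 0 fell, with a median log2 fold change of 1.61, among them the integrin gene Itgam (2.72, SE 0.21, adjusted p = 9.9e-06), the leukocyte phosphatase Ptprc (1.86, adjusted p = 0.00895), the lysosomal gene Cd68 (1.86, adjusted p = 0.00376) and the adaptor Tyrobp (1.74, adjusted p = 0.000167). The summed level of this list was 238 to 481 CPM in sham and 529 to 854 CPM in SAH 1d, without overlap. Of 10 disease-associated microglia genes, which microglia and macrophages express around damage, 7 rose and 0 fell, with a median of 2.30, among them Itgax (6.44, SE 0.73, adjusted p = 0.000102) and Spp1 (5.90, SE 0.56, adjusted p = 3.4e-05), Clec7a (5.05) and Lgals3 (4.43).

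The ligands and regulators of the members also moved at day 1. Of 4 ligands, Csf1, a ligand of Csf1r, rose from a median of 12.98 CPM in sham to 29.8 CPM (log2 fold change 1.26, SE 0.18, adjusted p = 0.000542), and Tgfb1, a cytokine that maintains the homeostatic program, rose by 1.66 (SE 0.31, adjusted p = 0.00286). Cx3cl1, the neuronal ligand of Cx3cr1, fell from a median of 605 to 338 CPM (log2 fold change -0.80, SE 0.11, adjusted p = 0.00036), and Il34, the other ligand of Csf1r, was at -0.17 (adjusted p = 0.567). Of 7 transcription factors of myeloid cells, 3 rose and 1 fell. Spi1, which encodes PU.1, rose by 1.64 (adjusted p = 0.00048), Irf8 by 1.56 (adjusted p = 0.000107) and Cebpa by 0.52 (adjusted p = 0.00994), and Mef2c, which neurons express as well, fell by 0.84 (adjusted p = 0.0144).

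Some markers of other cells moved at day 1 too, where 14.9% of all tested genes were called higher and 10.5% lower. All 7 neuron genes fell, led by Snap25 (-0.73, adjusted p = 0.00225), and 1 of 5 astrocyte genes fell, Aldh1l1. Of 6 border macrophage genes 2 rose, Cd163 (1.23, adjusted p = 0.00317) and F13a1 (0.70, adjusted p = 0.0242), the monocyte gene S100a4 rose (2.73, adjusted p = 0.000272), and the only tested neutrophil gene, S100a9, rose. The summed border macrophage level was 19.1 to 43.2 CPM in sham and 23.6 to 41.9 CPM in SAH 1d, and overlapped. Of 4 endothelial genes Cdh5 rose, of 5 proliferation genes Mki67 and Cdk1 rose, and 0 of 5 oligodendrocyte, 4 mural cell and 1 T cell genes were called. Their part in the day 1 levels of the members was not tested. At day 7 against sham, edgeR called 0 genes of any list. In the lists nearest to the members, against sham all 10 other homeostatic genes (median log2 fold change 1.18), all 11 pan-myeloid genes (2.67) and all 10 disease-associated genes (3.79) were above 0. From day 1 to day 7 it was 10 of 10 (1.24), 11 of 11 (1.38) and 8 of 10 (1.51). Over all tested genes 49.4% were above 0 against sham and 54.1% between the days. These list values include SAH 7d-5 and are not given without it. It had a pan-myeloid sum of 6577 CPM (group median 801) and a disease-associated sum of 39183 CPM (group median 3066). Medians of single genes did not all rise between the days. That of Spp1 was 114 CPM in SAH 1d and 7.96 CPM in SAH 7d, and that of Trem2 9.88 and 25.8 CPM. The genes Fcrls, Ccr2, Plac8, Trac and Pecam1 of these lists were not analysed here.

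**Figure D5:**
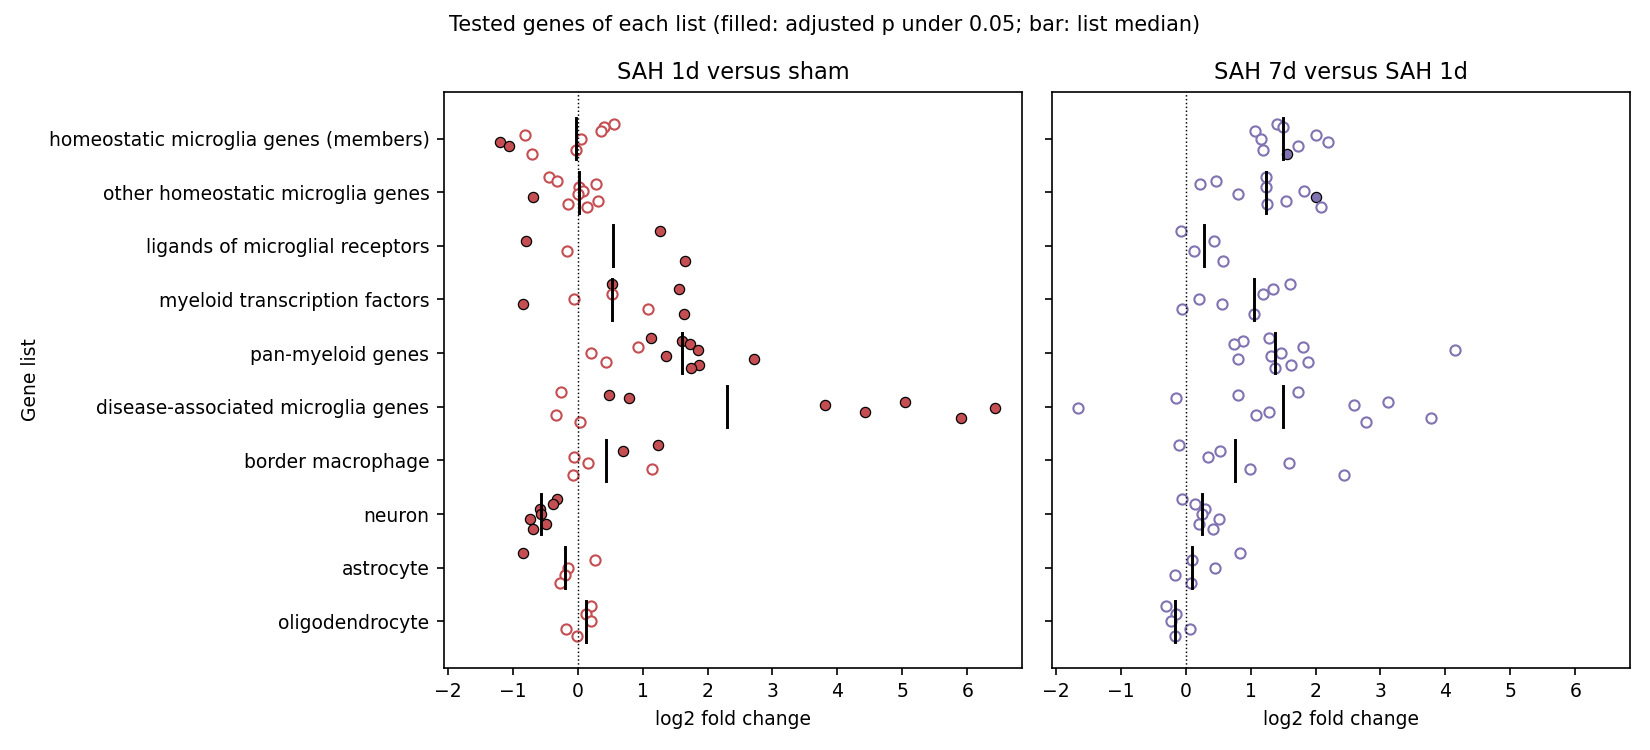
Log2 fold changes of the tested genes of the members and 9 other lists in SAH 1d versus sham and SAH 7d versus SAH 1d. Each point is 1 gene, filled where the adjusted p is under 0.05, and the bar is the list median, which at day 1 is -0.03 for the members, 1.61 for the pan-myeloid genes and -0.56 for the neuron genes.

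P2ry12 and P2ry13, the members that fell at day 1, are neighbours on chromosome 2, with 6756 bases between them in the RefSeq annotation of the GRCr8 build, inside the extent of the gene Med12l. No coordinates of the Rnor_6.0 build of the files were used here. The library kit is not described as keeping the strand, so reads of Med12l and of these genes cannot be told apart where they overlap. Med12l had a median of 12.6 CPM in sham and 9.96 CPM in SAH 1d and fell by 0.33 on the log2 scale (adjusted p = 0.0365). Gpr34 lies inside the extent of the gene Cask in the same annotation, and Cask was not analysed here.

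The stretches of 250 bases before the RefSeq start are shown for P2ry13, which fell, and for Gpr34. Both genes had their lowest group median in SAH 1d. The stretches are from the GRCr8 build, at chr2:145622785-145623034 and at chrX:11785837-11786086, both on the minus strand, and both starts lie inside the longer extent that RefSeq gives the gene. Capitals mark matches, on either strand, of GAGGAA, the core motif of PU.1.
P2ry13: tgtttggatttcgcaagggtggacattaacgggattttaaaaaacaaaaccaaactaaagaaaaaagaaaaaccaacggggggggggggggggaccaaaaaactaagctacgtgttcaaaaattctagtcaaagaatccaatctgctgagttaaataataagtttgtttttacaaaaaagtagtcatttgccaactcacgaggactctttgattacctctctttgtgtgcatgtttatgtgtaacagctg
Gpr34: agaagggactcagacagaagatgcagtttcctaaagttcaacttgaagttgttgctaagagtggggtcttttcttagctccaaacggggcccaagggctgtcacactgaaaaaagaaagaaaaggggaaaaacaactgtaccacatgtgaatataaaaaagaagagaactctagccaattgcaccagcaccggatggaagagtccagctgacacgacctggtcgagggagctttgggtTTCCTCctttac
The motif was found in 2 of the 5 members that the table of promoters holds, Gpr34 and Csf1r, and in 23.3% of all 33469 windows of this length. The match in Gpr34 begins 12 bases before the start. The MEF2 motif, CTA and TAG with 4 bases between, was found in Cx3cr1 alone (3.41% of windows), and the composite of ETS and IRF factors, GGAA and GAAA with 2 bases between, in none of the 5 (2.48% of windows). A match is a string of letters in a window, not a site at which binding was measured.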

How the data were processed

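Cortex RNA was extracted with Trizol and made into libraries with a NEBNext Ultra kit by the authors. The deposited files hold whole-number counts per gene, not normalized, and FPKM values made by the authors from the same libraries, with replicates kept apart. Reads were aligned to the rat genome Rnor_6.0 per the study's methods and the gene IDs are of rat, whereas the submitters' processing notes name the mouse build mm9, with fastp, HISAT2 and DESeq2 1.16.1. The sources used here do not give the counting program. Of the 30735 genes, 8685 are loci outside the annotation.

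Groups were taken from the sample labels. Counts were filtered with filterByExpr over all 18 libraries and scaled by TMM. Each comparison used its 12 libraries in the two-sided quasi-likelihood F test of edgeR 4.0.16 (R 4.3.3), with p-values adjusted by Benjamini-Hochberg over all 18444 tested genes, so they rest on the spread between rats. A gene was called at an adjusted p under 0.05. The SE is the log2 fold change divided by the square root of F. The alternatives were DESeq2 1.42.0, DESeq2 size factors in edgeR, limma 3.58.1 (voom, or a trend on log2(FPKM + 1) or log2(FPKM + 0.1)), other filters, a robust fit, all 18 libraries in 1 fit, the replicate number as a block, and each library left out. The scripts were tested on simulated data. Python 3.11.15 was used for summaries and figures.

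The members, the 15 lists and the naming rule (all 9 members, up to 4 called genes of each list with the largest changes, and the 10 genes most like the members' mean by Pearson r) were chosen with earlier results of these data known, and the ratios and overlapping genes were added after the values were seen. No pair of libraries within a group was a duplicate (smallest chi-square per degree of freedom 13.1).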

Additional observations from a re-analysis of the deposited data

Results flagged for a closer look

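Among 27 groups of 6 values (9 genes in 3 groups), 8 held a library far from the other 5 by Dixon's test at the 95% level. Of the 8, 5 were in SAH 7d-5. The genes share libraries and vary together, so flags in the same library are not separate events. The test's rate of about 1 in 20 by chance therefore cannot be set against this count. In SAH 7d-5, P2ry13 was at 30.2 CPM (next library 12.6), Cx3cr1 at 129.4 (50.5), Csf1r at 1295 (445.5), Olfml3 at 43.9 (14.9) and Aif1 at 142.6 CPM (43.4). In sham-1, Cx3cr1 was at 26.3 CPM (next library 17.6) and Csf1r at 175.1 CPM (119.6). In SAH 1d-3, Gpr34 was at 3.91 CPM, with the next library at 20.1 CPM.

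Tmem119 changed differently from sham at the 2 days: the change at day 7 minus that at day 1 was 1.56 on the log2 scale (edgeR adjusted p = 0.0123), which is the same test as SAH 7d versus SAH 1d because both changes share the sham libraries.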

How the results depend on the processing

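P2ry12 and P2ry13 were lower at day 1, and Tmem119 higher at day 7 than at day 1, in all 24 alternatives. In SAH 1d versus sham 2 members were called lower, against 3 with DESeq2 (Tmem119 added, 13.8% of all genes), 0 in the fit of all 18 libraries (5.17%), 1, P2ry13, with the replicate block (9.28%), FPKM + 1 (3.02%) and FPKM + 0.1 (3.01%), and 1 to 3 with 1 library left out (1413 to 2406 of the 18444 tested genes). Called higher were 0, against 2 with DESeq2 (16.6%), 3 with voom (18.9%), 1 with the replicate block (12.3%), 2 with FPKM + 1 (13.4%), 3 with FPKM + 0.1 (14.0%), 3 with the filter at a mean FPKM of 0.5 (22.8%), 3 without SAH 1d-3 (15.4%) and 0 to 3 with any 1 library left out (2101 to 2846 genes). In SAH 7d versus sham DESeq2 called 4 higher against 0 (2.2%). In SAH 7d versus SAH 1d 1 was called higher, against 6 with DESeq2 (1.99%), 2 with voom (6.37%), 5 in the fit of all 18 libraries (1.28%), 3 with SAH 1d-3 and SAH 7d-5 left out (6.13%) and 1 to 2 with 1 library left out (11 to 587 genes). The causes were not tested.

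The day 1 change of Sall1 turned positive with voom (0.16), FPKM + 1 (0.0689, also with the mean filter), FPKM + 0.1 (0.0768) and without SAH 1d-3 (0.0681), and ran from -0.12 to 0.0898 with any 1 library left out. That of Olfml3 was -0.000427 without sham-4 and ran from -0.0651 to 0.17 with 1 library left out.

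Over all genes, 4684 were called in SAH 1d versus sham and 2462 in the fit of all 18 libraries. FPKM + 1 moved the split of 2748 higher and 1936 lower to 3585 and 809, and FPKM + 0.1 moved the median log2 fold change of all genes from 0.01 to 0.11. In SAH 7d versus SAH 1d the count was 252, against 1012 with DESeq2, 2718 with voom, 779 in the fit of all 18 libraries, 29 with the replicate block, 393, 411 and 414 with the FPKM settings, 2512 with SAH 1d-3 and SAH 7d-5 left out, 1545 without SAH 7d-5 and down to 102 without SAH 7d-2. In SAH 7d versus sham it was 0, with 2842 at an unadjusted p under 0.05, against 459 with DESeq2, 2 with voom, 9 in the fit of all 18 libraries and 3 without SAH 7d-4.

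Equal replicate numbers did not pair the samples: over 18 pairs the correlation of deviations ran from -0.25 to 0.20, 1 pair was over 0.1 and 2 of 18 were best with their own number, so the block stands for numbers only.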
